A study of Mus musculus with 9 samples.

Results

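Among the intervals that the authors deposited for KDM6A chromatin immunoprecipitation followed by sequencing (ChIP-seq) in mouse embryonic stem cells, the narrow intervals with the highest read ratio formed a small class. The read ratio of an interval is its immunoprecipitated (IP) reads plus 1, divided by its background reads plus 1. Intervals were selected on this ratio, at 4 or more, in each of 5 deposited lists, on the autosomes other than chromosome 11. This kept 611 intervals of 117301 on those chromosomes, from 142062 intervals in the 5 lists. The 4 KDM6A lists held 516 of them and the IgG list held 95. Because the ratio chose these intervals, their ratios, reads, deposited folds and deposited p-values are given as a description, with no test. Width moves with the read counts, so it is also described, with no p-value given.

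The cells were mouse embryonic stem cells of the line Sv129, grown on gelatin with leukemia inhibitory factor. The control cells are labelled WT, and the MTX cells were collected 24 hours after 0.12 µM MTX was added and carry the genotype label folate deficiency. Every library, the controls included, also carries neurodevelopment as its treatment label. There were 2 control and 2 MTX libraries made with an antibody to KDM6A, 1 library made with IgG from the MTX 1 cells, and 4 inputs, for 9 samples in all. The IgG library is a nonspecific antibody control for MTX cells, and no IgG list for control cells was used here. No label says whether replicates came from separate cultures, so each spread and p-value covers only the spread between these libraries, which may be technical. Stem cell markers cannot be read from these lists, which hold chromatin reads and no expression.

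KDM6A, also called UTX, removes methyl groups from lysine 27 of histone H3, a modification that Polycomb repressive complex 2 deposits at silenced genes. It is a subunit of the histone methyltransferase complexes built on KMT2C and KMT2D, which act mainly at enhancers and also at promoters. A ChIP-seq interval is meant to be a stretch of genome with more reads in the immunoprecipitated library than in its background library. The deposited lists also hold intervals with fewer IP reads than background reads. Where an interval holds few background reads, its ratio rests on small counts.

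The promoters that these intervals reached are shown first, since a promoter window ties an interval to an annotated transcript start. RefSeq promoter windows of GRCm38.p6, the assembly also named mm10, run from 250 bases before to 50 bases after an annotated start, and a gene can have several. Of the 611 intervals, 3 overlapped such a window and 0 overlapped a RefSeq microRNA. The 3 windows are printed 5′ to 3′ on the strand of the gene, which is the minus strand in each case, and capitals mark the bases that the interval covered. The windows lie at chr6:113934632-113934931 for Atp2b2, chr7:104085029-104085328 for Olfr645 and chr4:41723114-41723413 for Dctn3.
Atp2b2: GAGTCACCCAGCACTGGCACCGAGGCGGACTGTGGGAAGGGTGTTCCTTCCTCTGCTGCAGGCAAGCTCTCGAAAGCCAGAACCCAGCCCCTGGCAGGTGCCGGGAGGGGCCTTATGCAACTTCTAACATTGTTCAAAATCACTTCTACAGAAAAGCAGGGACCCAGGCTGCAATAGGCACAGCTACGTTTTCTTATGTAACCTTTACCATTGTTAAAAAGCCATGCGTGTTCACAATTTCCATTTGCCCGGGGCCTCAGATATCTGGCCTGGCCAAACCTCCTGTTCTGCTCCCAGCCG
Olfr645: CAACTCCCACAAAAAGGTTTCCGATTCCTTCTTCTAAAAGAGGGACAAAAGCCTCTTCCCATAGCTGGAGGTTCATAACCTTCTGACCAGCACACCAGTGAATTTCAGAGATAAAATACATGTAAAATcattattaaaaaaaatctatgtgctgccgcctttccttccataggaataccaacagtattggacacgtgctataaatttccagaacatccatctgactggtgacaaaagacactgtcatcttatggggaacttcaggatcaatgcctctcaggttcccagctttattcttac
Dctn3: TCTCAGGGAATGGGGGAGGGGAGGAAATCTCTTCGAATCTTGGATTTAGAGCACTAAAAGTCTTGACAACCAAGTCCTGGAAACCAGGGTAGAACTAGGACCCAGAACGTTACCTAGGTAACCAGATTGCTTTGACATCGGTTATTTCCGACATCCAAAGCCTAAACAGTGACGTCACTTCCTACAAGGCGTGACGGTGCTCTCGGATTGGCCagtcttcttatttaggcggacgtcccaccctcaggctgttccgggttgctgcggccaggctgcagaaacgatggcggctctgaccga
Atp2b2 encodes a plasma membrane calcium pump. Its window is 1 of 3 for this gene in the table and lies inside the gene, 108 kb from the 5′ end of the span. All 300 bases of its window lay in a control 1 interval (chr6:113934001-113935200) with 51 IP reads against 4 background reads, a read ratio of 10.4. Olfr645 encodes an odorant receptor, and 128 bases of its window lay in a control 1 interval with 25 reads against 3. Dctn3 encodes a dynactin subunit, and 213 bases of its window lay in an MTX 1 interval with 58 reads against 8. None of these 3 intervals had an interval of another list at the same place. The share of G and C was 54.0% for Atp2b2, 40.7% for Olfr645 and 52.3% for Dctn3, against a median of 52.7% over 32851 promoter windows of the same length. The dinucleotide CG, which reads the same on both strands, occurred 8, 3 and 15 times, against a median of 7 over those windows. Base composition in these 3 windows thus ranged from below to above that of the median promoter. The share of intervals over a promoter window was 0.617% for control 1 and 1.96% for MTX 1, with 0 in the other 3 lists. Among the remaining intervals of the 5 lists, this share lay between 2.65% and 6.19%. Those intervals were wider and so reach a window more easily, and widths were not matched for this share.

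The 5 lists contributed unequally. Control 1 held 324 such intervals among 39187, which is 0.827% of its list (exact 95% binomial interval 0.740 to 0.921%). Control 2 held 28 among 15999, or 0.175% (0.116 to 0.253%). MTX 1 held 51 among 19808, or 0.257% (0.192 to 0.338%). The share in control 1 was thus above that of every other list and the share in control 2 was the lowest. MTX 2 held 113 among 23254, or 0.486% (0.401 to 0.584%). IgG held 95 among 19053, or 0.499% (0.404 to 0.609%). The nonspecific antibody therefore gave a share within the range of the 4 KDM6A libraries, and its interval overlapped that of MTX 2. Control 1 supplied 62.8% of the KDM6A members and also had the longest list, the narrowest intervals and the lowest read minimum. Its intervals started at 25 IP reads, whereas the other 4 lists started at 31 to 37. The read ratio uses unscaled counts, so the cut was not the same deposited fold in each list. The lowest deposited fold of a member was 5.51 in control 1 and 4.24 to 4.60 in the other 4 lists. Intervals and floors given here cover counting error only, since the libraries were amplified over 30 cycles and no molecular identifiers are named in the labels.

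The total of IP reads inside intervals ranged from 3251202 to 4192029 per list, and that of background reads from 2593879 to 3554275. The full sequencing depth of the libraries is unknown from these lists. The deposited adjusted p-value was under 0.05 for all 611 members, the largest being 1.89e-12. It was also under 0.05 for 87.1% of all control 1 intervals, 84.4% of control 2, 82.1% of MTX 1, 88.3% of MTX 2 and 86.9% of IgG, so that threshold hardly separated the members from the rest. MTX 1 and IgG appear to have been compared with the same background, because all 52 intervals that these lists placed at identical coordinates had identical background counts. For any other pair of lists, at most 3 such intervals did.

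**Figure D1:**
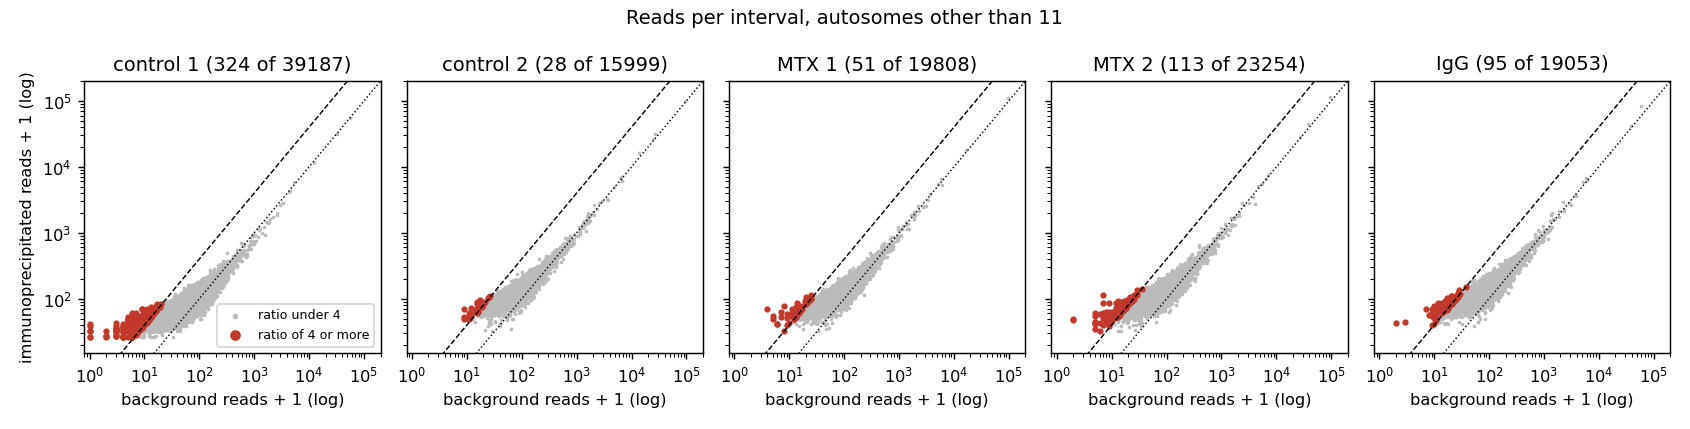
IP reads plus 1 against background reads plus 1 for every interval on the autosomes other than 11, 1 panel per list, with both axes logarithmic. Red points have a read ratio of 4 or more, the dashed line marks a ratio of 4 and the dotted line a ratio of 1; the red points lie at the low end of the background counts in all 5 lists.

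These narrow intervals had fewer IP reads than the rest, and far fewer background reads. The median IP count was 43 in control 1, 68 in control 2, 61 in MTX 1, 71 in MTX 2 and 80 in IgG. The remaining intervals of the same lists had medians of 78, 126, 113, 118 and 128, so the members held fewer IP reads in each list. The median background count was 8, 14, 12, 14 and 16, in the same order, against 64, 91, 84, 87 and 88 for the rest. The difference in background was thus larger than that in IP reads. Per kilobase, the members carried 49.3 to 53.8 IP reads and 8.75 to 10.0 background reads as medians, whereas the rest carried 28.2 to 34.3 and 22.7 to 24.7. Per kilobase the members thus held more IP reads and fewer background reads than the rest. Over the 516 KDM6A members, 71 had fewer than 5 background reads and 264 had fewer than 10. Without control 1, 11 and 50 of 192 did. The exact 95% interval of the raw ratio of reads stayed at or above 4 for 59 of the 611 members. For the rest that interval reached below 4, so their counts do not separate the ratio from lower values. The same counts chose the members, so these intervals do not keep their 95% coverage. They therefore do not show that the 59 exceed a ratio of 4.

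Most ratios lay close to the threshold. The median read ratio was 4.88 in control 1, 4.59 in control 2, 4.60 in MTX 1, 4.67 in MTX 2 and 4.60 in IgG. Of the 611 members, 349 had a ratio under 5, 41 had a ratio of exactly 4, and 65 reached 8. Another 422 intervals fell between 3.5 and 4, just outside the rule. The members just inside were control 1 intervals within Mybl1 (27 reads against 6), Cfap70 (35 against 8) and Rbfox2 (35 against 8). Just outside were an MTX 2 interval 395 kb from Basp1 (102 against 25) and IgG intervals 84.6 kb from Spock3 (94 against 23) and 601 kb from Pot1a (90 against 22), each with a ratio of 3.96. The intervals just inside thus held fewer reads than those just outside, at nearly the same ratio.

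**Figure D2:**
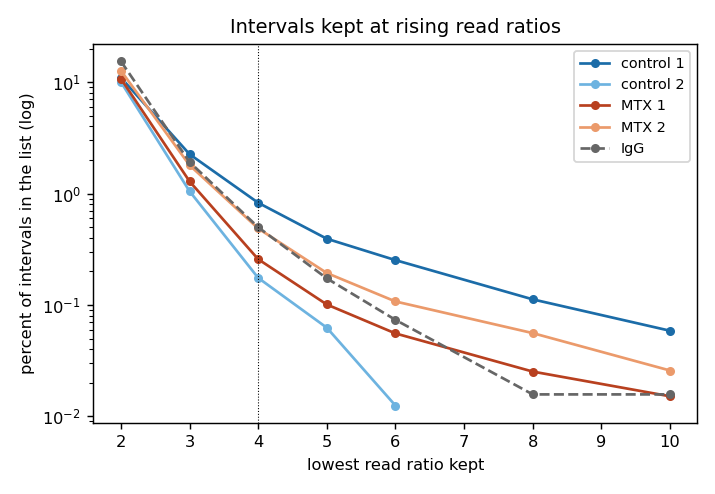
Percent of the intervals of each list kept as the lowest read ratio rises from 2 to 10, on a logarithmic vertical axis, with a dotted line at 4. At a ratio of 2 the IgG list has the highest share (15.4%) and the KDM6A lists lie between 10.0% and 12.7%, whereas at 4 control 1 is highest; control 2 is not drawn at 8 and 10, where it has 0 intervals.

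The order of the lists depended on the ratio chosen. At a ratio of 2 or more, IgG had the highest share of intervals at 15.4%, and the KDM6A lists ranged from 10.0 to 12.7%. At 8 or more, control 1 kept 44 intervals, control 2 kept 0, MTX 1 kept 5, MTX 2 kept 13 and IgG kept 3. When only members with at least 40 IP reads were kept, a limit above the lowest count of every list that was chosen after the data were seen, control 1 kept 194 intervals, control 2 kept 28, MTX 1 kept 49, MTX 2 kept 109 and IgG kept 94.

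The members were narrow. All intervals were multiples of 200 bp, and the median width of the members was 800 bp in control 1, 1200 bp in control 2, 1200 bp in MTX 1, 1400 bp in MTX 2 and 1600 bp in IgG. The remaining intervals had medians of 2800, 3800, 3400, 3600 and 3800 bp. Of the 611 members, 182 were 200 to 600 bp wide, and none was wider than 4000 bp. Among all intervals of 200 to 600 bp, the share that reached the ratio was 30.9% in control 1 (137 of 444), 8.33% in control 2 (3 of 36), 15.8% in MTX 1 (9 of 57), 35.3% in MTX 2 (24 of 68) and 16.7% in IgG (9 of 54). Most of the narrowest intervals in every list thus stayed below a ratio of 4.

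**Figure D3:**
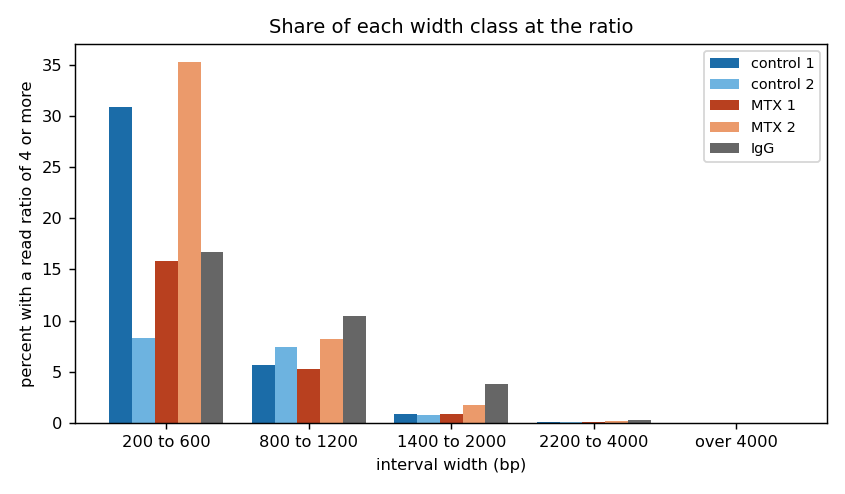
Percent of the intervals in each width class (bp) that reached a read ratio of 4 or more, with 1 bar per list and a vertical axis that starts at 0. The share falls from 8.33 to 35.3% at 200 to 600 bp to 0 in the class over 4000 bp in all 5 lists.

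The highest ratios of control 1 came from intervals without a background read. There were 6 such members, all in control 1, and folds are given against a floor of 3 reads for each background library, with the exact 95% lower limit of the ratio beside them. The floor value describes the observed counts by a fixed convention and is not a lower limit of the true ratio. The exact lower limits lie below it. The first lay inside Pik3r1, which encodes regulatory subunits of phosphoinositide 3-kinase, at chr13:101766601-101767400, 817 bp from the 5′ end of the gene. It held 41 IP reads against 0, at least 13.7-fold higher by the floor (exact lower limit 10.6), and no other list had an interval there. An interval 278 kb from Edil3, which encodes an extracellular integrin ligand, held 37 reads against 0, at least 12.3-fold higher by the floor (exact lower limit 9.54). The next lay 7.63 kb from Tespa1 with 32 reads against 0, at least 10.7-fold higher by the floor (exact lower limit 8.18). Control 2 had a wider interval over that place, 4800 bp, with a ratio of 1.19. The remaining 3 lay 802 kb from Mrpl39 (31 reads), 469 kb from Sntg1 (25 reads, with a control 2 interval of ratio 1.49 at the same place) and inside Slc4a4, a bicarbonate cotransporter gene (25 reads). The members with the most reads in control 1 had lower ratios: 82 against 16 inside Pebp4, 81 against 19 at 683 kb from Ppargc1a and 80 against 18 inside Hgf, the gene of hepatocyte growth factor. The Hgf place also had intervals in MTX 1 (ratio 1.18), MTX 2 (1.83) and IgG (1.75).

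Control 2 had no member above a ratio of 7.67. That member lay inside A830018L16Rik (chr1:11867601-11868800) and held 68 IP reads against 8. The second lay inside Sbf2, which encodes a myotubularin-related protein, with 72 reads against 11. Members followed 117 kb from Trhde, inside Nedd9, which encodes a focal adhesion scaffold (51 against 8), and 9.41 kb from Tomm70a, which encodes a mitochondrial import receptor. At the Tomm70a place control 1 had an interval with 93 reads against 86, a ratio of 1.08. The Sbf2 place had an MTX 2 interval with a ratio of 1.43 and the place near Trhde an IgG interval with a ratio of 2.43, while the places in A830018L16Rik and Nedd9 had no interval in another list. The most reads in control 2 were 109 against 25, at 581 kb from Gm52257, then 106 against 24 inside the neuregulin gene Nrg3 and 102 against 23 at 270 kb from Lmo7. The place near Lmo7 had an MTX 2 interval with a ratio of 1.20.

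In MTX 1 the highest ratio was 17.75, for an interval 25.8 kb from Stard4, which encodes a sterol transfer protein. It held 70 IP reads against 3, a raw ratio of 23.3 (exact 95% interval 7.66 to 116). The second member lay 79.5 kb from Rybp, a gene for a subunit of Polycomb repressive complex 1, with 53 reads against 4. The third covered an end of the odorant receptor gene Olfr553 with 49 reads against 4. None of these 3 places had an interval in another list. The fourth and the fifth lay 890 kb from Acvr2a, an activin receptor gene (77 against 7), and 5.48 kb from Chl1, a neural cell adhesion gene (63 against 6). The most reads were 114 against 24 inside Mgat4c, a glycosyltransferase gene.

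In MTX 2 the highest ratio was 25, for an interval 138 kb from Fam124b with 49 IP reads against 1. Its raw ratio of 49.0 had an exact 95% interval of 8.39 to 1974, so its size was hardly determined. The second lay 282 kb from Lratd1, with 47 reads against 1. A pair of members stood out by read density: both lay inside Emp2, an epithelial membrane protein gene, at chr16:10284401-10284600 and chr16:10285401-10285600, with a gap of 800 bp. They held 114 reads against 6 and 84 against 6 in 200 bp each, or 570 and 420 IP reads per kilobase. At the same place control 1 had an interval of 2600 bp with 77 reads against 82, a ratio of 0.940. Control 2 had an interval of 2200 bp there with 102 reads against 67, a ratio of 1.51, and neither MTX 1 nor IgG had any. The fifth member lay 184 kb from the annexin gene Anxa10, with 59 reads against 4.

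The IgG list held members of the same kind. Its highest ratio was 21.5, for an interval 1.44 kb from the pantothenate kinase gene Pank1 with 42 reads against 1. Its second member lay inside Klf2, which encodes a transcription factor of the naive pluripotency network, at chr8:72321201-72321600 and 54 bp from the 3′ end of the gene. It held 44 IgG reads against 2, a raw ratio of 22.0 (exact 95% interval 5.74 to 187), and no KDM6A list had an interval there. The next lay 325 kb from Nudt12 (70 against 6), 193 kb from Ralyl (76 against 9) and inside Tbc1d5, a gene for a Rab GTPase-activating protein (68 against 8). The 4 highest ratios of the IgG list, from 7.7 to 21.5, lay above every ratio in control 2.

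Most members, and many of the other intervals, were found in 1 list alone. Of the 611 members, 468 (76.6%) overlapped no interval of any other list, 117 overlapped an interval in 1 other list, 20 in 2, 5 in 3 and 1 in all 4 others. The share in no other list was 82.1% in control 1, 60.7% in control 2, 66.7% in MTX 1, 70.8% in MTX 2 and 74.7% in IgG. Among the other intervals of these lists it was 61.7%, 45.3%, 48.1%, 50.8% and 45.6%. Which reads a place without an interval held cannot be read from the lists, so a missing interval does not mean an absence of reads. The share of members over an interval of another KDM6A list was 13.9% in control 1 (45), 32.1% in control 2 (9), 29.4% in MTX 1 (15), 16.8% in MTX 2 (19) and 25.3% in IgG (24). Among the other intervals of the same lists, that share was 31.6%, 49.4%, 45.4%, 43.2% and 54.4%. The members thus overlapped another KDM6A list less often in 5 of 5 lists, with a difference of -21.3 ± 6.0 percentage points (members minus others, mean and SD over lists, n = 5). A two-sided exact permutation test that flips the sign of the difference of each list gave p = 0.0625, the smallest that 5 lists allow, and 0.0833 after adjustment over 12 such tests. The lists are not independent of each other here, since each overlap counts for both lists, and the test was added after the values were seen.

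Wider intervals overlap more easily, so the comparison was repeated with the others of exactly the same widths, weighted by the widths of the members. These overlapped another KDM6A list in 23.6%, 47.2%, 41.2%, 37.3% and 49.0% of cases. The members were below them in 5 of 5 lists, with a difference of -16.1 ± 5.87 percentage points (SD, n = 5; exact sign permutation p = 0.0625, adjusted 0.0833). Taken by 4 width classes in each list, the members were below the others in 18 of 20 classes. The 2 exceptions were MTX 1 at 2200 to 4000 bp (57.1% against 42.2%) and control 2 at 1400 to 2000 bp (42.9% against 40.9%), each with 7 members.

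Overlap with the IgG list was lower in the members than in the rest of each KDM6A list. It was 6.17% in control 1 (20 intervals), 7.14% in control 2 (2), 7.84% in MTX 1 (4) and 15.0% in MTX 2 (17). The rest of these lists overlapped IgG in 15.6%, 20.7%, 20.7% and 18.9% of cases. The difference was -9.96 ± 4.43 percentage points (SD, n = 4), with the members lower in 4 of 4 lists, and its exact sign permutation p of 0.125 (adjusted 0.136) is the smallest that 4 lists allow. Against others of the same widths, at 14.0%, 24.8%, 22.1% and 19.3%, the members were lower in 4 of 4 lists, by the same exact test with p = 0.125 (adjusted 0.136). These tests too were added after the values were seen, and all 4 lists were set against the same IgG list.

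**Figure D4:**
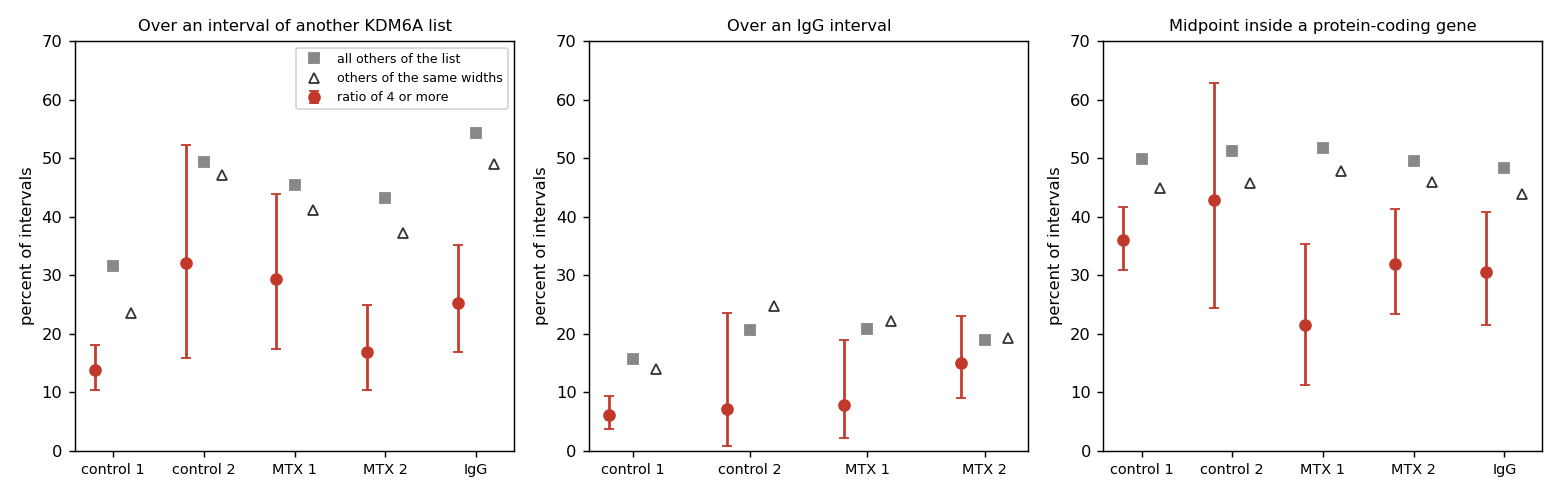
Percent of intervals over an interval of another KDM6A list, over an IgG interval and with the midpoint inside a protein-coding gene, for each list. Red points are the members with exact 95% binomial intervals, grey squares all other intervals of the list and triangles the others at the widths of the members; in all 3 panels the red point lies below both in each list.

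Where another list did have an interval at the place of a member, its ratio was mostly below 2. The 516 KDM6A members gave 103 such pairs with another KDM6A list, with a median ratio of 4.71 for the member and 1.51 at the other list (0.940 to 4.92). The other ratio was at least 2 in 17 pairs (16.5%), at least 4 in 2 and at most 1 in 2. For 56084 such pairs of the other KDM6A intervals, the median was 1.24 and 5.77% were at least 2. Among such pairs, ratios of 2 or more in the other list were thus a larger share for members, which is a description with no test. Members overlapped another list less often, however. Counted per interval, 17 pairs from 516 members and 3235 pairs from 97732 other intervals were nearly the same rate. Those 2 pairs at 1 or less were the Emp2 intervals set against control 1. With the IgG list there were 43 pairs, and the IgG ratio had a median of 1.65 and a highest value of 3.13, with 7 (16.3%) at least 2. For the other KDM6A intervals the IgG median was 1.35, with 8.03% at least 2. The 95 IgG members gave 30 pairs with KDM6A lists, with a median of 1.41 at the KDM6A list, a highest value of 2.83 and 4 (13.3%) at least 2. For the other IgG intervals the median was 1.26, with 6.48% at least 2. No place reached a ratio of 4 in both a KDM6A list and the IgG list. Ratios of 2 or more were a larger share of the pairs for members than for the rest, but not when counted over all intervals.

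Members of 2 lists overlapped at 1 place. In MTX 1 it was chr3:60202201-60204400 with 90 IP reads against 18, a ratio of 4.79, and in MTX 2 chr3:60202201-60203200 with 58 reads against 11, a ratio of 4.92. The place lies 116 kb from Sucnr1, which encodes the succinate receptor, and no control or IgG interval was there. No KDM6A member overlapped an IgG member; the closest were a control 1 and an IgG member 4.80 kb apart. The control 1 member with intervals in all 4 other lists lay at Gm9733 (chr3:15298201-15298400), with 25 reads against 3 and a ratio of 6.5, and the other lists gave ratios of 1.24 to 1.69.

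**Figure D5:**
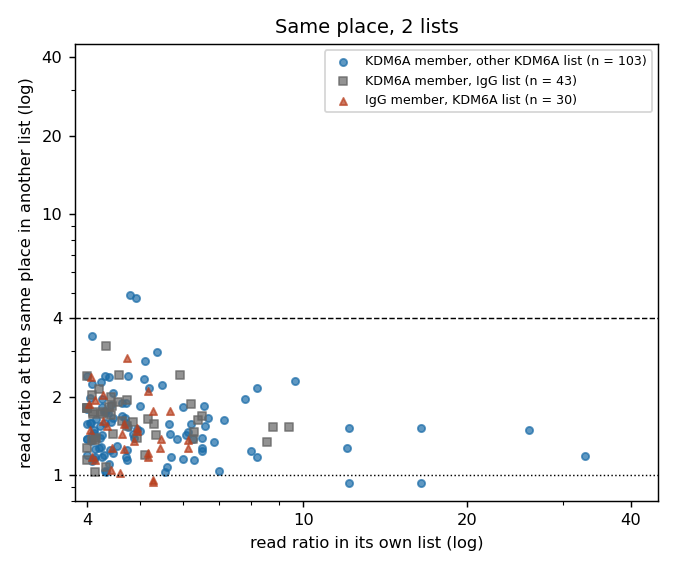
Read ratio of a member in its own list against the ratio of the overlapping interval in another list, on logarithmic axes, for 103 pairs of KDM6A lists, 43 pairs with the IgG list and 30 pairs of IgG members with KDM6A lists. The dashed line marks 4 and the dotted line 1; the 2 points above 4 are the MTX 1 and MTX 2 members near Sucnr1, seen once from each list.

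In each list the members lay outside genes more often than the rest. The midpoint was inside the span of a protein-coding gene for 36.1% of the members in control 1 (117), 42.9% in control 2 (12), 21.6% in MTX 1 (11), 31.9% in MTX 2 (36) and 30.5% in IgG (29). Among the other intervals of these lists the share was 50%, 51.2%, 51.9%, 49.5% and 48.4%. The members were lower in 5 of 5 lists, with a difference of -17.6 ± 8.07 percentage points (SD, n = 5), with an exact sign permutation p of 0.0625 (adjusted 0.0833). That is the smallest p that 5 lists allow, and the test was added after the values were seen. The 5 lists mix control, MTX and IgG libraries, and MTX 1 and IgG appear to share a background. Against others of the same widths, at 45%, 45.7%, 47.8%, 45.9% and 43.9%, the difference was -13.1 ± 8.60 percentage points, lower in 5 of 5 lists, with the same p by that exact test. By width class, the members were below the others in 17 of 20 classes. The 3 exceptions were IgG at 200 to 600 bp (44.4% against 26.7%), control 2 at 800 to 1200 bp (66.7% against 43.3%) and control 2 at 200 to 600 bp (33.3% against 30.3%). Of the 406 members outside genes, 261 lay over 100 kb from the nearest protein-coding gene and 106 over 500 kb. The median distance of these members was 194 kb in control 1, 181 kb in control 2, 130 kb in MTX 1, 203 kb in MTX 2 and 344 kb in IgG. No such distances are given here for the other intervals outside genes, so these values do not set the members apart. Whether a member inside a gene lay in an exon or an intron was not analysed here.

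Gene ends held few of them. A window of 1 kb around either end of a protein-coding gene was overlapped by 11, 0, 3, 2 and 5 members of control 1, control 2, MTX 1, MTX 2 and IgG, or 3.40%, 0%, 5.88%, 1.77% and 5.26%. For the other intervals the shares were 9.04%, 7.09%, 11%, 6.47% and 8.87%, and the members were lower in 5 of 5 lists. The difference was -5.22 ± 1.28 percentage points (SD, n = 5, exact sign permutation p = 0.0625, adjusted 0.0833). Again this p is the smallest that 5 lists allow, and the test was added after the values were seen. Wider intervals reach such a window more easily. Against others of the same widths the difference was -4.60 ± 1.76 percentage points (SD, n = 5), lower in 5 of 5 lists. It ranged from -6.55 in control 2 to -1.77 in IgG. The 21 members at gene ends made 22 pairs with genes, of which 6 were nearer the 5′ end, 8 nearer the 3′ end, 1 touched both and 7 had no strand in the table used. Beside Pik3r1, the 5′ end was nearer at Prss32, a serine protease gene (control 1, 42 reads against 6), and at Tnks2, a tankyrase gene (MTX 1, 39 against 8). The 3′ end was nearer at Lhx9, a LIM homeobox gene (control 1, 43 against 6). At the Lhx9 place MTX 2 had an interval with a ratio of 1.15 and IgG one with a ratio of 1.47. In MTX 2 the member with the highest ratio at a gene end lay next to Vcam1, a vascular adhesion molecule gene, with 43 reads against 4. IgG had an interval over that Vcam1 place with 113 reads against 73, a ratio of 1.54. In IgG, members lay at the 3′ ends of Klf2 and of Neurod4, a neural transcription factor gene (59 reads against 13). The Neurod4 place also had an MTX 1 interval with a ratio of 2.03.

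The genes that held members were long, which is described here with no test. In all, 189 of 19056 protein-coding genes on these chromosomes contained at least 1 member. The median span of the gene around a member was 206 kb in control 1, 224 kb in control 2, 121 kb in MTX 1, 450 kb in MTX 2 and 448 kb in IgG. Around other intervals inside genes the medians were 117 to 131 kb, and over all 19056 genes the median was 17.9 kb. In MTX 1, with 11 members inside genes, the 121 kb was close to the 117 kb around its other intervals. A long gene offers more room for an interval, and a member inside a gene is named by position only.

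Only 14 genes held more than 1 member, and 9 held members of 2 lists. Dpp10, which encodes an auxiliary subunit of potassium channels and spans 1514 kb, was the one with more than 2. It held 3 control 1 members, with 29 reads against 2, 68 against 8 and 68 against 10, and 1 MTX 2 member with 81 against 18. These 4 lay at separate places. Members of a control and of an MTX list also shared a gene, at separate places, in Nlgn1, Robo2, Mgat4c and Slc25a21. Nlgn1, a synaptic adhesion gene, held a control 1 member (36 against 8) and an MTX 2 member (84 against 11). Robo2, an axon guidance receptor gene, held a control 1 member (77 against 15) and an MTX 2 member (87 against 14). Cntn4, a contactin gene, held 1 member of each control list. Ptprd, Pcdh15 and Robo1 held an IgG member beside a KDM6A member, so genes of this length collected members of the nonspecific antibody too.

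In the gene lists that bear on the study, the share of genes with a KDM6A member was near that of all protein-coding genes. Of 259 listed genes on these chromosomes, 3 held the midpoint of a KDM6A member in their span widened by 1 kb on both sides (1.16%), against 171 of 19056 protein-coding genes (0.897%), and 157 of the 259 held the midpoint of some KDM6A interval in the same way. Aebp2, a cofactor of Polycomb repressive complex 2, held a control 1 member of 30 reads against 3 (raw ratio 10.0), 11.7 kb from the nearer gene end. It was 1 of 8 listed genes of that complex. Map2, a neuronal microtubule protein gene, was 1 of 26 neural progenitor genes, with a control 1 member of 42 reads against 9. Fbn1, a fibrillin gene, was 1 of 19 fibroblast genes, with a control 1 member of 53 reads against 12. All 3 came from control 1, and none remained without that library.

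The other lists had no KDM6A member. This held for KDM6A and its complex (0 of 9 genes, 8 of which had some KDM6A interval), for folate and one-carbon metabolism (0 of 38, 27 with an interval) and for neural tube closure (0 of 43, 27 with an interval). It also held for pluripotency (0 of 28), p53 targets and DNA damage (0 of 31), germline (0 of 18), mesoderm and endoderm (0 of 18) and imprinted genes (0 of 21). Over all protein-coding genes the share was 0.897%, so 0 in lists of this size does not set them apart. The IgG list had a member in 1 of these genes, Klf2. Among gene families, 5 of 1021 Olfr odorant receptor genes (0.490%) and 1 of 354 Vmn vomeronasal receptor genes (0.282%) lay at a KDM6A member. So did 2 of 367 Zfp zinc finger genes (0.545%), against the same 0.897% of all protein-coding genes. The Olfr and Vmn families hold near-identical copies, so the placement of reads among their members is uncertain. The Zfp genes were taken by symbol alone, and how alike they are was not examined.

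Control and MTX libraries were then compared over the 4 KDM6A lists. With 2 libraries against 2, a two-sided exact permutation test cannot give a p below 0.333, and p-values were adjusted over 5 values. The share at the ratio and the width are tied to the rule, so their p-values are not given, though they count among the 5 adjusted values. The share of intervals at the ratio was 0.501 ± 0.461% in control and 0.372 ± 0.162% in MTX (SD, n = 2 each). The MTX values lay between the 2 control values, so the difference was smaller than the spread of the controls. With at least 40 IP reads the difference turned from -0.129 to 0.0230 percentage points. Without control 1 it was 0.197.

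The share of members over another KDM6A list was 23.0 ± 12.9% in control and 23.1 ± 8.91% in MTX (SD, n = 2 each; exact permutation p = 1). The share over an IgG interval was 6.66 ± 0.686% in control and 11.4 ± 5.09% in MTX (SD, n = 2 each; exact permutation p = 0.333, adjusted 0.833). Both MTX libraries were higher than both controls, by 4.79 percentage points on average, which is less than the SD of the MTX libraries. The difference was 1.19 without MTX 2 and 8.39 without MTX 1. At a ratio of 5 or more this difference was -0.281. The IgG library itself came from MTX cells and shares its background with MTX 1.

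The share of members inside genes was 39.5 ± 4.77% in control and 26.7 ± 7.28% in MTX (SD, n = 2 each; exact permutation p = 0.333, adjusted 0.833). Both MTX libraries were lower than both controls, and the IgG list, at 30.5%, lay between MTX 1 and MTX 2. The median width was 1000 ± 283 bp in control and 1300 ± 141 bp in MTX (SD, n = 2 each), and the median of MTX 1 equalled that of control 2. None of the 3 differences with a p-value given was shown to exceed the spread between libraries.

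Members were spread over all 18 chromosomes. Over the 4 KDM6A lists together, their share of intervals ranged from 0.346% on chromosome 4 to 0.941% on chromosome 16. Control 1 gave 20 of the 31 members on chromosome 16, and MTX 1 had 0 among 614 intervals there, so the order of chromosomes was not the same in each list. Chromosome 11, which the rule leaves out, had 9 intervals at a ratio of 4 or more in control 1, 1 in control 2, 1 in MTX 1, 7 in MTX 2 and 5 in IgG.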

How the data were processed

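Of 9 samples, 5 had an interval list used here. The submitters' processing notes name the aligner Bowtie2 and the build mm10. For the interval caller and the identity of the background libraries, nothing is given in the sources used here. A deposited list has 8 columns: position, 2 columns of read counts per interval (immunoprecipitated and background), a p-value, a fold ratio and an adjusted p-value, all made by the authors. Positions were counted in mm10 and are given 1-based. Where the background was above 0, the deposited fold was the ratio of the deposited counts times 1 constant per list. This constant was 1.32 in control 1, 1.04 in control 2, 1.07 in MTX 1, 1.12 in MTX 2 and 1.04 in IgG. The read ratio adds 1 read to both deposited counts, so it understates large ratios of few reads.

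The members, gene lists and tests were chosen with earlier results of these data known. Named members were, per list, the 5 with the highest ratio, the 3 with the most IP reads and up to 5 within 1 kb of a gene end, together with overlaps of members between lists, members in listed genes and the 3 intervals on each side of the threshold. Members discussed for an unusual read density, for a promoter overlap, or for sharing a gene were chosen after their values were seen. Of 287 gene list entries, 278 were found in the RefSeq table. Gene spans, promoter windows and microRNAs came from RefSeq tables of GRCm38.p6; overlap means at least 1 bp. Intervals of raw ratios and shares are exact at 95%, and a background of 0 was set to a floor of 3 counts per library. Those of raw ratios do not account for the choice of members by the same counts. Comparisons were two-sided exact permutation tests over libraries, adjusted by Benjamini-Hochberg; the scripts were tested on simulated data. Alternatives were other ratios (3 and 5), the deposited fold, 0.5 added reads, at least 20 IP reads, chromosome 11 kept, 50% overlap, a place within 1 kb and each library left out; the limit of 40 IP reads, the values without control 1 pooled over lists, and the comparisons of members with the rest of their lists, of all widths and of the same widths, were added after the data were seen. Python 3.11.15, numpy 2.4.6, pandas 2.3.3, scipy 1.17.1 and matplotlib 3.10.9 were used.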

Additional observations from a re-analysis of the deposited data

Results flagged for a closer look

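Outside the chromosomes of the rule, control 1 had 20 intervals on chromosome X, of which 5 reached a read ratio of 4 or more. That is 25% (exact 95% binomial interval 8.66 to 49.1%, counting error only), against 0 of 3 intervals on that chromosome in the IgG list, and the difference between the lists was not tested. The same chromosome had 0 of 7 such intervals in control 2, 0 of 2 in MTX 1 and 0 of 8 in MTX 2. The 5 control 1 intervals lay at chrX:31185001-31185200 (27 reads against 4), chrX:51681201-51681400 (25 against 2), chrX:85176401-85178000 (63 against 11), chrX:104932201-104933400 (52 against 12) and chrX:153069401-153070600 (46 against 6), in mm10 coordinates.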

How the results depend on the processing

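The MTX minus control difference in members inside genes, -12.8 percentage points, kept its sign in every setting run (-6.11 to -17.9). The difference in the share at the ratio (-0.129) was 0.0230 with at least 40 IP reads and ranged from -0.455 to 0.197 when libraries were left out 1 at a time. The difference over IgG (4.79) was -0.281 at a ratio of 5 and 1.19 to 8.39 with libraries left out, and that in median width (300 bp) was -150 and 100 to 500. The difference over another KDM6A list (0.097) was -1.99 with chromosome 11 kept, -1.77 for a place within 1 kb, -2.75 with 50% overlap, -1.05 at a ratio of 3, -2.98 at a ratio of 5, and -9.03 to 9.22 with libraries left out. The 2 members that overlap members of another KDM6A list became 10 at a ratio of 3, 0 at 5 and 4 with a deposited fold of 4 or more, and 0 to 2 with libraries left out (0 without MTX 1 or without MTX 2). The 3 listed genes became 8, 1 and 7 in those settings and 0 to 3 with libraries left out (0 without control 1). The 324 (control 1), 28 (control 2), 51 (MTX 1), 113 (MTX 2) and 95 (IgG) members became, in that order, 884, 168, 255, 418 and 366 at a ratio of 3, 154, 10, 20, 45 and 33 at 5, 953, 46, 85, 205 and 123 by the deposited fold, and 194, 28, 49, 109 and 94 with at least 40 IP reads. Against others no wider than 95% of the members of a list, in place of the same widths, the members differed by -14.3 (another KDM6A list), -6.31 (IgG, lower in 3 of 4 lists), -16.1 (inside genes) and -3.94 percentage points (gene ends). The cause of these changes was not tested. With the replicate number as a replicate block, the paired differences were equal to the unpaired ones (-0.129, 0.097, 4.79, -12.8 and 300) and changed no call, since 2 pairs cannot give a p below 0.5; no label says that the numbers pair the libraries, and over 18 chromosomes the deviations of same-numbered libraries correlated at r = -0.36. The small background counts limit the ratios of single members.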
